A study of Mus musculus with 8 samples.

Results

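The Serpin genes code for serine protease inhibitors and their non-inhibitory relatives. They were taken as every row of the deposited expression table whose mouse symbol is Serpin followed by a clade letter from a to i and a number, which gave 45 genes of the 18262 listed, of which 44 are described and counted here. Poly(A) RNA of mouse colon was sequenced after colitis had been induced with dextran sulfate sodium (DSS), a polymer given to injure the colonic lining. The DSS + GAA group holds 4 libraries of wild type (WT) mice given DSS and 20 mg/kg of GAA, which is ganoderic acid A, a triterpenoid made by Ganoderma fungi. The DSS group holds 4 libraries of WT mice given DSS without GAA. Both groups use the replicate numbers 1, 2, 4 and 5. One dose, 20 mg/kg, is stated for the whole GAA group in titles and design, whereas the treatment labels of single libraries run 20, 21, 22 and 23 mg/kg; the 4 were treated as 1 group. Strain, age and sex are not given in the sources used here, and mice without colitis were not analysed here. The comparison addresses how colon expression under DSS differed with GAA given. Whether each library came from its own mouse is not stated, and the p-values then reflect only how far these samples spread, which may be technical.

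A serpin presents a reactive loop that a target protease cleaves, after which the serpin changes shape and holds the protease in a covalent complex. Family members control plasminogen activation, clotting, complement and the proteases released by leukocytes, and several are made more strongly in inflamed tissue. Clade A and clades C to I are mostly secreted, whereas clade B members mostly stay in the cytoplasm and protect cells from proteases of their own or of neighbouring immune cells. Some members inhibit no protease and serve as hormone carriers, chaperones or growth-related proteins.

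In the DSS + GAA colon 9 Serpin genes of clades A, E, F and I were lower, among them the acute-phase inhibitor Serpina3n and the thrombin inhibitor Serpine2, while none of the 7 clade B members expressed highly enough to be tested passed in either direction. Expression was compared as log2(TPM + 1), where TPM is a length-corrected share of all transcripts, for genes with at least 1 TPM in at least 4 of the 8 libraries. This kept 21 of the 44 Serpin genes. By limma with Benjamini-Hochberg adjustment over the 14217 tested genes, at an adjusted p under 0.05, 9 Serpin genes were lower in DSS + GAA, 0 were higher and 12 passed in neither direction. At an unadjusted p under 0.05, 11 were lower and 0 were higher. Of all tested genes, 28.2% were called lower and 5.96% higher, against 42.9% lower among the tested Serpin genes. Serpina3k reached 1 TPM in DSS libraries alone, and without it 8 of 20 tested Serpin genes were lower (40.0%). The median log2 fold change was -0.71 over the tested Serpin genes and -0.25 over all tested genes, so a general shift towards lower values lies under every fold change given here. For 8 of the 21 tested Serpin genes all DSS + GAA libraries lay below all DSS libraries, against 27.6% of all tested genes. The 8 include Serpina3k, whose separation is no support because it passed the filter through DSS libraries alone. In the other direction 0 were separated, against 5.31%. Other scalings of the libraries moved the general shift to near 0. Under trimmed mean scaling 7 Serpin genes were lower and 1 higher (background 10.9% and 15%), under quantile normalization 6 and 0 (11.3% and 11.8%), and under median centring 6 and 1 (9.2% and 15.2%), by limma. Each of these lower counts also includes Serpina3k.

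**Figure D1:**
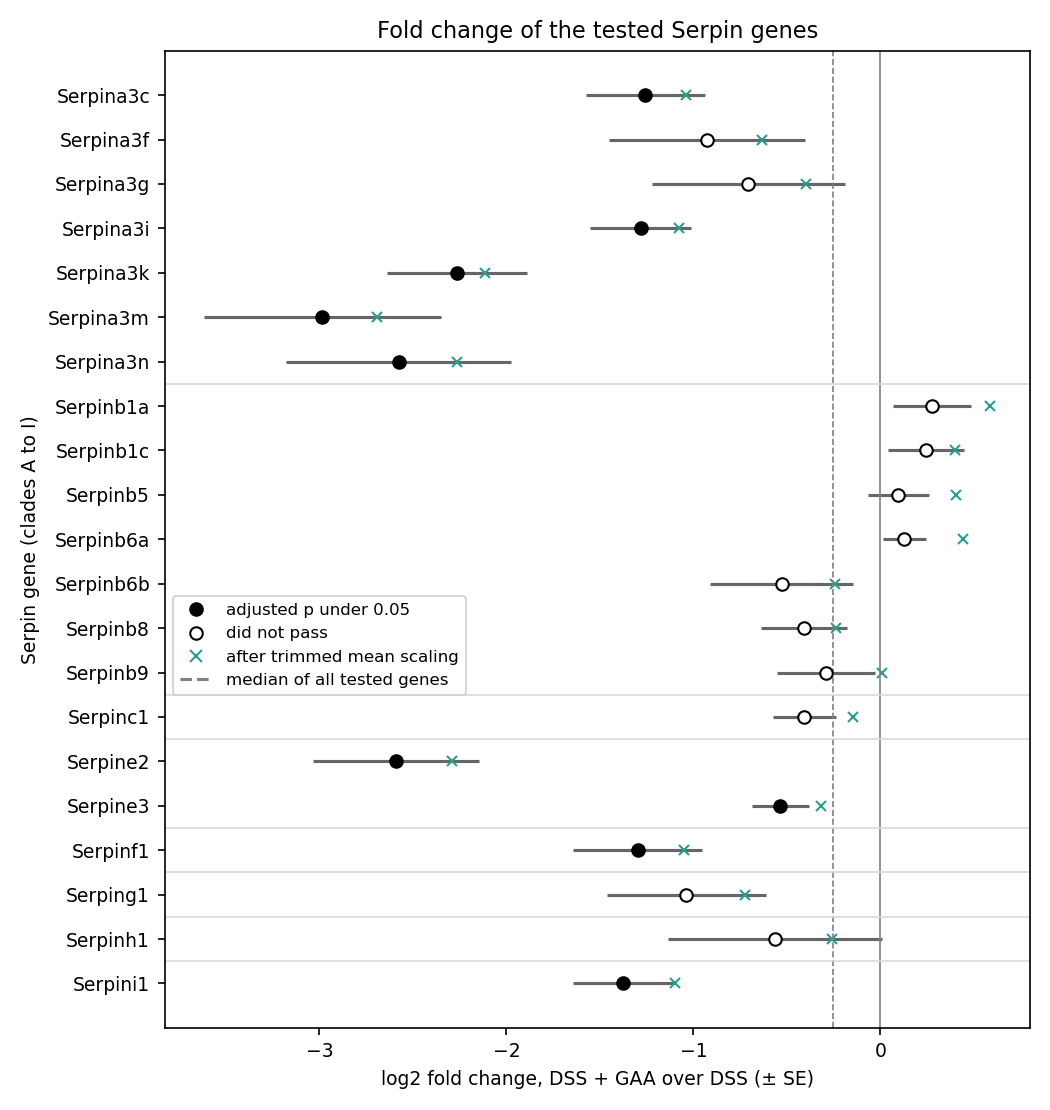
Log2 fold change, DSS + GAA over DSS, of the 21 tested Serpin genes in clade order, with standard errors from the fit over 4 libraries a group. Serpine2, Serpine3 and 5 of the 7 clade A genes were called lower, and the 7 clade B genes, from -0.53 to 0.28, were not called. Over all tested genes 28.2% were called lower.

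The labelled tissue fitted its markers: the 10 colonocyte markers, Krt8 and Vil1 among them, summed to 14765 to 17535 TPM in DSS + GAA libraries and 10541 to 13961 TPM in DSS libraries, with 6 higher and 1, Car1, lower. In bulk tissue, fewer cells of a type and less RNA per cell cannot be told apart. Other marker lists were compared too, and no marker of the lists named here was at 0 in all 8 libraries. Of all tested genes, 28.2% were called lower and 5.96% higher, and the general shift towards lower values lies under these counts too. Of 11 neutrophil markers, 8 were lower and 0 higher in DSS + GAA (summed TPM 1407 to 4378, against 4588 to 10984 in DSS). Most of the DSS + GAA sums came from Ly6g, at 1137 to 3659 TPM, against 2441 to 4470 TPM in DSS. Its groups overlapped and it was not called (adjusted p 0.195, limma). Csf3r and Ltf were not called either, and Ltf had the higher mean in DSS + GAA (184 TPM, against 64.2 TPM in DSS). Of 10 fibroblast markers, 4 were lower and 0 higher (494 to 1762 TPM in DSS + GAA, against 1998 to 5031 TPM in DSS). Of 10 endothelial markers, 8 were lower and 0 higher (38.96 to 155 TPM in DSS + GAA, against 158 to 269 TPM in DSS). Of 12 enteric neuron and glia markers, 11 were lower and 0 higher (185 to 548 TPM in DSS + GAA, against 949 to 1795 TPM in DSS). Of 11 T and NK cell markers, 9 were higher and 0 lower (152 to 419 TPM in DSS + GAA, against 79.6 to 102 TPM in DSS). Macrophage markers (3 of 10 lower; 676 to 2412 TPM in DSS + GAA, 1143 to 1464 TPM in DSS), smooth muscle markers (1 of 10 lower; 1666 to 4016 TPM in DSS + GAA, 2104 to 5537 TPM in DSS) and adipocyte markers (1 of 5 tested lower; 72.8 to 173 TPM in DSS + GAA, 343 to 549 TPM in DSS) had no higher call. Shares of lower calls in the macrophage, smooth muscle and adipocyte lists were near or below that of all tested genes. Those 3 counts are therefore no result about the lists. The part of all the marker lists in the Serpin results was not tested. TPM keeps no record of sequencing depth, so depth is unknown and no detection limit is given.

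Serpine2 and Serpine3 of clade E were tested and lower. Serpine2, protease nexin-1, inhibits thrombin, urokinase and plasmin at cell surfaces. It reached 27.5, 20.6, 10.8 and 9.31 TPM in DSS + GAA replicates 1, 2, 4 and 5, against 205, 92.2, 99.6 and 50.1 TPM in the DSS replicates. The highest DSS + GAA library stayed below the lowest DSS library. Its log2 fold change was -2.59 ± 0.44 (SE), with an adjusted p of 0.00615 by limma, at chromosome 1 (GRCm38, 79794197 to 79861180, minus strand). Serpine3 was a low and small case, at 1.78, 1.69, 1.92 and 2.05 TPM in DSS + GAA libraries and 2.61, 3.74, 3.50 and 2.80 TPM in DSS libraries. These groups did not overlap either, and the log2 fold change was -0.53 ± 0.15 (SE, adjusted p 0.0249, limma), or -0.28 relative to the median of all genes. The Serpine3 call was lost under all 3 other scalings of the libraries, at adjusted p values of 0.159 to 0.710, and without DSS + GAA replicate 2 or 4 or without DSS replicate 4 (0.0509 to 0.0784, limma). It was also lost with the replicate number as a block (0.05555, limma). Serpine3 overlaps Ints6 on the opposite strand, and whether the counting used strand is not given, so reads of this low gene may include those of its partner.

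The plasminogen activators Plat (tissue type) and Plau (urokinase type) moved too. Plat was 96.2, 53.1, 13.7 and 25.2 TPM in DSS + GAA libraries, against 271, 474, 191 and 277 TPM in DSS libraries, a log2 fold change of -2.93 ± 0.53 (SE, adjusted p 0.00673, limma). Plau averaged 24.9 ± 16.01 TPM in DSS + GAA and 84.4 ± 50.7 TPM in DSS (SD, n = 4 each), with a log2 fold change of -1.69 and an adjusted p of 0.0414 by limma. The Plat groups were separated and the Plau groups overlapped.

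**Figure D2:**
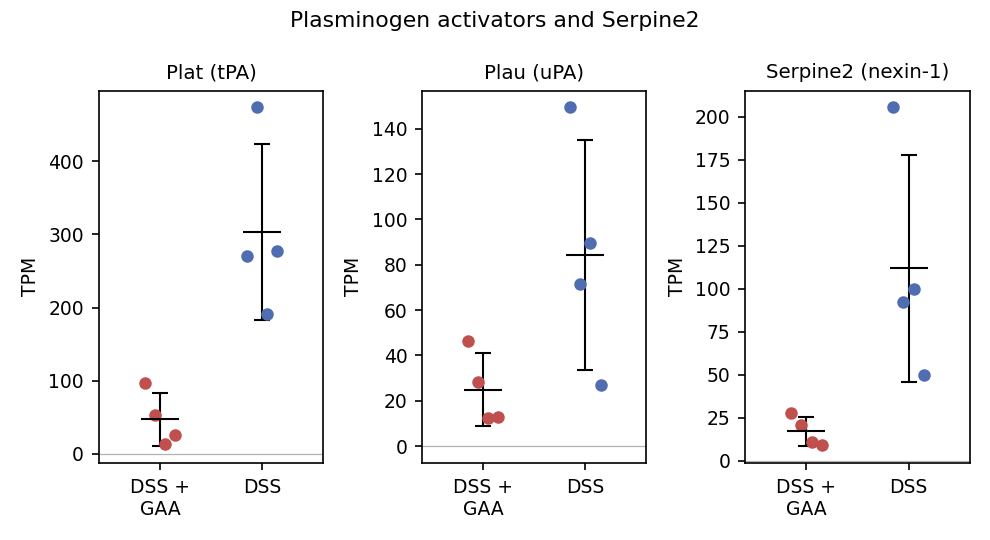
TPM of Plat, Plau and Serpine2 in each library, with group means and the SD over 4 libraries. All 3 genes had lower means in DSS + GAA, and Plat and Serpine2 had no overlap between the groups.

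Of the 9 tested genes of a list for plasminogen activation, 4 were lower (Plat, Lrp1, Thbd and Plau) and 1 higher. Their median log2 fold change was -0.60. Over all tested genes the shares were 28.2% lower and 5.96% higher, or 9.2% to 11.3% lower under the 3 other scalings. The gene that was higher was Plgrkt, a cell-surface plasminogen receptor, at 127 ± 18.2 TPM in DSS + GAA and 57.0 ± 3.32 TPM in DSS (SD, n = 4 each; log2 fold change 1.13, adjusted p 0.00425, limma). Lrp1, an endocytic receptor that clears serpin-protease complexes, had a log2 fold change of -0.87 (adjusted p 0.0118, limma). The count of 4 lower genes was 2 with any of the 3 other scalings, and also 2 when DSS + GAA replicate 2, 4 or 5 or DSS replicate 1, 2 or 4 was left out. The coagulation list had 4 of 9 tested genes lower and 1 higher, against the same 28.2% and 5.96% of all tested genes. Its median was -1.09. Its smallest p-values belonged to Tfpi, the tissue factor pathway inhibitor (-1.27, adjusted p 0.00900), F3, which is tissue factor (-1.09, adjusted p 0.0142), and F2rl1, a protease-activated receptor (0.58, adjusted p 0.0158), all by limma. The coagulation count of 4 was 1 under trimmed mean scaling, under median centring and without DSS replicate 1, 2 without DSS + GAA replicate 4 or DSS replicate 4, and 7 without DSS + GAA replicate 1.

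Clade A was led by the Serpina3 genes, a mouse expansion of the secreted acute-phase inhibitor antichymotrypsin that lies as a cluster on chromosome 12. All 7 tested clade A genes belong to it, of 9 Serpina3 genes and 17 clade A genes listed. Of the 7, 5 were lower, or 4 of 6 without Serpina3k, against 28.2% of all tested genes. Serpina3n, an acute-phase inhibitor of granzyme B and leukocyte elastase in mouse, was the second most abundant Serpin by mean level (chromosome 12, 104406729 to 104414329, plus strand). Its level was 460, 248, 93.2 and 60.9 TPM in DSS + GAA replicates 1, 2, 4 and 5, against 1604, 1116, 904 and 523 TPM in the DSS replicates. The groups were separated, and the lowest DSS library, replicate 5, stood next to the highest DSS + GAA library, replicate 1. The means were 216 ± 182 TPM in DSS + GAA and 1037 ± 451 TPM in DSS (SD, n = 4 each), with a log2 fold change of -2.58 ± 0.60 (SE, adjusted p 0.0137, limma).

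Serpina3m followed the same direction at 26.5, 15.0, 3.56 and 3.49 TPM in DSS + GAA and 171, 78.1, 51.9 and 47.9 TPM in DSS. Its groups were separated, with a log2 fold change of -2.98 ± 0.63 (SE, adjusted p 0.01005, limma), the lowest fold change among the 21 tested Serpin genes described. Serpina3k, a kallikrein-binding serpin, was 0.664, 0.074, 0.159 and 0 TPM in DSS + GAA, against 8.82, 7.52, 3.59 and 1.87 TPM in DSS. It passed the filter through its DSS libraries alone, so that it could be tested only because it was high there, and its call is no support for a difference. Its log2 fold change of -2.26 ± 0.38 (SE, adjusted p 0.00585, limma) depended on the added constant, at -4.28 with 0.1 and -0.95 with 5 in place of 1. The annotation places Serpina3k within the span of Serpina3m on the same strand. Of the 75-base words of the longest Serpina3k transcript, 7.36% also occur in transcripts of other Serpin genes. Reads of this pair may therefore be split between them in the authors' counting.

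Serpina3i measured 1.94, 1.42, 0.926 and 0.337 TPM in DSS + GAA and 5.83, 3.03, 3.40 and 4.29 TPM in DSS, with separated groups (log2 fold change -1.28 ± 0.27, SE; adjusted p 0.00969, limma). Serpina3c measured 2.83, 1.76, 0.589 and 0.818 TPM in DSS + GAA and 6.86, 4.81, 2.76 and 4.83 TPM in DSS. Its highest DSS + GAA library was just above its lowest DSS library, and limma gave -1.26 ± 0.32 (SE) with an adjusted p of 0.0174. That call was lost without DSS replicate 1 (0.0591), under median centring (0.0612) and under quantile normalization (0.0530, limma). The fold changes of both low genes also moved with the added constant, reaching -1.92 for Serpina3i and -1.78 for Serpina3c with 0.1, and -0.57 and -0.59 with 5.

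The neighbours Serpina3f and Serpina3g did not pass. Serpina3g, an intracellular inhibitor of cysteine cathepsins, was 101, 65.0, 45.2 and 16.6 TPM in DSS + GAA and 138, 48.9, 59.3 and 91.8 TPM in DSS. Serpina3f was 39.9, 23.7, 16.1 and 5.57 TPM in DSS + GAA and 60.7, 21.3, 27.6 and 36.8 TPM in DSS. For both, 2 or more libraries of one group lay within the range of the other, and their log2 fold changes were -0.71 ± 0.52 and -0.93 ± 0.52 (SE, adjusted p 0.313 and 0.195, limma). The 2 remaining Serpina3 genes, Serpina3b and Serpina3j, stayed at or under 0.125 TPM in every library. In the longest transcript of each gene, shared 75-base words came to 8.91% for Serpina3g and 5.61% for Serpina3f, but 1.46% for Serpina3n. By this measure the values of Serpina3n are least exposed to read sharing among these 3.

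**Figure D3:**
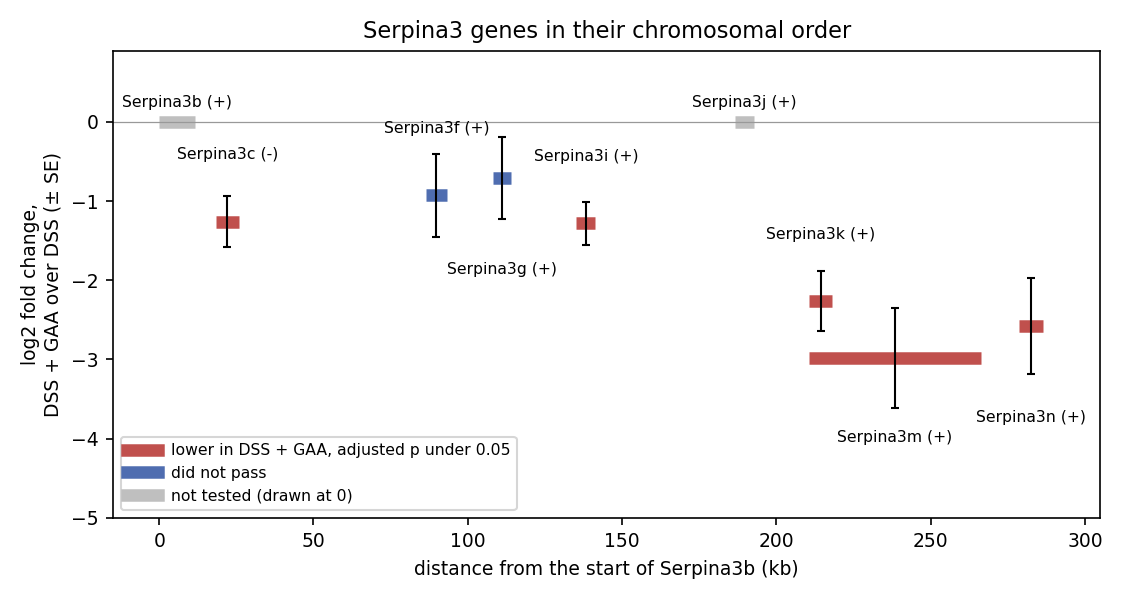
Log2 fold change, DSS + GAA over DSS, with standard errors, of the Serpina3 genes set by their distance in kb from the start of Serpina3b. The cluster spans 286 kb; Serpina3k, Serpina3m and Serpina3n at its far end show the lowest values, from -2.26 to -2.98, and Serpina3f and Serpina3g between them and Serpina3c were not called.

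The windows before the start of 4 of these genes are shown because their neighbours moved unequally, and because they hold the letters of 2 inflammation-related motifs. They are the 250 bases upstream of the RefSeq start on GRCm38.p6, all on the plus strand, 5′ to 3′, with Serpina3n at chr12:104406458-104406707, Serpina3i at chr12:104262872-104263121, Serpina3g at chr12:104235897-104236146 and Serpina3f at chr12:104214294-104214543. Capitals mark an NF-kappa-B-like pattern (GGG, any 2 bases, then TTTCC) and a STAT-like pattern (TTC, any 3 bases, then GAA), searched on both strands, and the marked letters of one do not overlap those of the other.
Serpina3n: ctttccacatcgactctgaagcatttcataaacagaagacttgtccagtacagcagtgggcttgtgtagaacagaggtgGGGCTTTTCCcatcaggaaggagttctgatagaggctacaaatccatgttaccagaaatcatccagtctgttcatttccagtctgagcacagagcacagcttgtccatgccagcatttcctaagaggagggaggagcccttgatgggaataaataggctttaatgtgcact
Serpina3i: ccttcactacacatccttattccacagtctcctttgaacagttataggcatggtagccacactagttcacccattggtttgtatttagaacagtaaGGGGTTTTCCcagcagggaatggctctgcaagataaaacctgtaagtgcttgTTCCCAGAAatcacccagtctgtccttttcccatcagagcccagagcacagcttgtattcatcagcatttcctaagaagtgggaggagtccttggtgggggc
Serpina3g: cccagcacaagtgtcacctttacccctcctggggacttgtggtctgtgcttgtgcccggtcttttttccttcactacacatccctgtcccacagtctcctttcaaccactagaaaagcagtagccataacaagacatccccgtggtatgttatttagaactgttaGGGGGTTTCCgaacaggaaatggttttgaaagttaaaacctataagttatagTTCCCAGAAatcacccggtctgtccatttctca
Serpina3f: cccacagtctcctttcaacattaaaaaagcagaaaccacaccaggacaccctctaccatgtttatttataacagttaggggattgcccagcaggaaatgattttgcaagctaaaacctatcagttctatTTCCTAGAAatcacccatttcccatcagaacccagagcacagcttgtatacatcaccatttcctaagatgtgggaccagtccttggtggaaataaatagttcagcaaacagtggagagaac

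The NF-kappa-B-like letters occurred in the windows of Serpina3n, Serpina3i and Serpina3g, 171, 154 and 85 bases before the start. These were the only matches among the 38 Serpin genes with a window in the RefSeq table, where 1.41% of all 32851 windows hold the pattern. Of the 3 genes, Serpina3n and Serpina3i were called lower and Serpina3g was not. The window of Serpina3c, also called lower, held neither this nor the STAT-like pattern. It has 92.7% identity over 247 aligned bases with that of Serpina3n. The STAT-like letters occurred in windows of 5 of the 38 genes, including Serpina3i, Serpina3g and Serpina3f, against 7.02% of all windows. The windows are relatives, with 82.9% identity over 152 aligned bases between Serpina3f and Serpina3g and 76.1% over 222 bases between Serpina3i and Serpina3n. They are therefore not independent matches, and the letters describe the sequence without showing a site. The AP-1-like pattern (TGA, any base, then TCA) occurred in windows of 9 of the 38 genes, against 6.75% of all windows. It was held by 0 of the 7 genes called lower that have a window, 2 of 10 not called and 7 of 21 not tested. At 6.75% of all windows, 0 of 7 is no result about the lower genes. Some genes have several windows, so shares of genes and shares of windows are unlike units.

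Away from the Serpina3 cluster, clade A was barely detected. The alpha-1 antitrypsin genes Serpina1b, Serpina1c, Serpina1d and Serpina1e, mainly made by liver, had means of at most 0.807 TPM in DSS + GAA and 0.945 TPM in DSS. Alb, the defining liver marker, was at 0 to 0.326 TPM in DSS + GAA and 0 to 0.224 TPM in DSS. Of 12 hepatocyte markers 3 were tested, with 1 lower and 0 higher (summed TPM 120 to 158 in DSS + GAA and 182 to 357 in DSS, mostly from Tat). Serpina10, an inhibitor that acts with protein Z on factor Xa, ran against the clade at 0.230, 2.14, 3.94 and 1.39 TPM in DSS + GAA and 0.249, 0.238, 0.221 and 0.382 TPM in DSS. DSS + GAA replicate 1 lay within the DSS range, and the other 3 lay above it. It missed the filter. Without a filter its log2 fold change was 1.03 ± 0.36 (SE), with an adjusted p of 0.0608 by limma, and it also did not pass in the 4 fits that each left out 1 DSS library (adjusted p 0.0803 to 0.119, limma). It passed only without DSS + GAA replicate 1 (adjusted p 0.00206, limma), which removes the DSS + GAA library within the DSS range and lets the gene through the filter by the 3 high libraries, so that call is no support for a difference. In the authors' deposited table Serpina10 has a log2 fold change of 2.81 and a false discovery rate of 9.32e-17.

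Of the 17 listed clade B genes 7 were tested, and 0 passed by limma in either direction, against 28.2% lower and 5.96% higher of all tested genes. At an unadjusted p under 0.05 the clade B count was also 0, and the median log2 fold change was 0.10. Of the 10 clade B genes that missed the filter, Serpinb2, Serpinb9b, Serpinb9e and Serpinb10 were called lower when no filter was used. Serpinb2 was also called lower in the 5 fits with 1 library left out in which it was tested (adjusted p 0.00943 to 0.0387, limma), where it passed the filter through its DSS libraries alone. The difference between clades was not tested. Serpinb1a, a cytoplasmic inhibitor of neutrophil elastase, proteinase 3 and cathepsin G, was the most abundant Serpin on the TPM scale, which divides by transcript length. It measured 1976, 1652, 1336 and 1262 TPM in DSS + GAA and 1049, 1137, 1216 and 1759 TPM in DSS. All DSS + GAA libraries were above 3 of the DSS libraries, but DSS replicate 5 lay among them, and the log2 fold change was 0.28 ± 0.21 (SE, adjusted p 0.326, limma). Neutrophil markers, by contrast with this inhibitor of neutrophil proteases, were lower in DSS + GAA for 8 of 11 genes.

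Serpinb6a, an intracellular inhibitor of cathepsin G, was the steadiest of the abundant members at 432, 443, 482 and 523 TPM in DSS + GAA and 437, 422, 439 and 417 TPM in DSS. The groups overlapped, and the log2 fold change was 0.13 ± 0.11 (SE, adjusted p 0.402, limma). Under trimmed mean scaling (0.44, adjusted p 0.0233) and median centring (0.43, adjusted p 0.0247) the same gene was called higher by limma. It overlaps Nqo2 and Ripk1 on the opposite strand, and as the sources used here do not say whether the counting used strand, reads of these genes may be mixed. Serpinb5, maspin, an epithelial serpin without inhibitory activity, was 110, 134, 166 and 156 TPM in DSS + GAA and 126, 160, 130 and 111 TPM in DSS. These groups overlapped throughout, with a log2 fold change of 0.10 ± 0.16 (SE, adjusted p 0.671, limma). Among 15 squamous epithelium markers, 6 were tested, with 2 lower and 0 higher (summed TPM 54.2 to 141 in DSS + GAA and 34.8 to 72.3 in DSS), and Krt5 stayed at or under 0.235 TPM in every library.

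Serpinb9, which protects cells from granzyme B, averaged 23.2 ± 9.09 TPM in DSS + GAA and 27.4 ± 4.68 TPM in DSS (SD, n = 4 each). Its log2 fold change of -0.29 had an adjusted p of 0.415 by limma, and its sign turned to 0.01 under trimmed mean scaling and median centring. The protease it blocks, Gzmb, was called higher, at 70.6 ± 30.2 TPM in DSS + GAA and 27.5 ± 5.36 TPM in DSS (log2 fold change 1.23, adjusted p 0.0180, limma). Serpinb6b (9.67 ± 6.45 TPM in DSS + GAA, 12.5 ± 2.17 TPM in DSS), Serpinb8 (1.09 ± 0.683 TPM in DSS + GAA, 1.69 ± 0.398 TPM in DSS) and Serpinb1c (1.18 ± 0.426 TPM in DSS + GAA, 0.835 ± 0.332 TPM in DSS) had log2 fold changes of -0.53, -0.41 and 0.24. Their adjusted p-values by limma were 0.309, 0.195 and 0.373. Without DSS + GAA replicate 1, Serpinb6b (-0.88, adjusted p 0.0343) and Serpinb8 (-0.61, adjusted p 0.0251) were called lower by limma.

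Leukocyte serine proteases, the natural targets of several clade A and B members, were also compared. Of 14 listed genes 7 were tested, 4 were higher and 0 lower, against 5.96% and 28.2% of all tested genes, with a median log2 fold change of 1.20. The 4 were Cma1, Gzmk, Gzma and Gzmb. Prtn3, which is proteinase 3, was not called, at means of 0.763 TPM in DSS + GAA and 1.28 TPM in DSS (-0.39, adjusted p 0.236, limma). Neutrophil elastase and cathepsin G were not among the 7 tested genes. Cma1, a mast cell chymase (1.20, adjusted p 0.00510), Gzmk (2.11, adjusted p 0.00531) and Gzma (1.45, adjusted p 0.0117), granzymes of T and NK cells, had the smallest p-values by limma. The T and NK marker list moved the same way, with 9 of 11 higher, and its part in the granzyme values was not tested. Of 14 tested epithelial serine proteases 3 were higher and 3 lower, with a median of 0.21, and the share of lower calls was not above that of all tested genes. Tmprss4 (0.94, adjusted p 0.00554), Prss22 (-2.66, adjusted p 0.0138) and St14, matriptase (0.66, adjusted p 0.0141), led that list by limma. Of 10 cysteine cathepsins 1 was higher and 3 lower, shares near the 5.96% and 28.2% of all tested genes and so no result about the list. The smallest p-values were those of Ctsl (-1.47, adjusted p 0.00547), Ctsw (1.96, adjusted p 0.00664) and Ctsk (-2.06, adjusted p 0.00743), by limma.

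**Figure D4:**
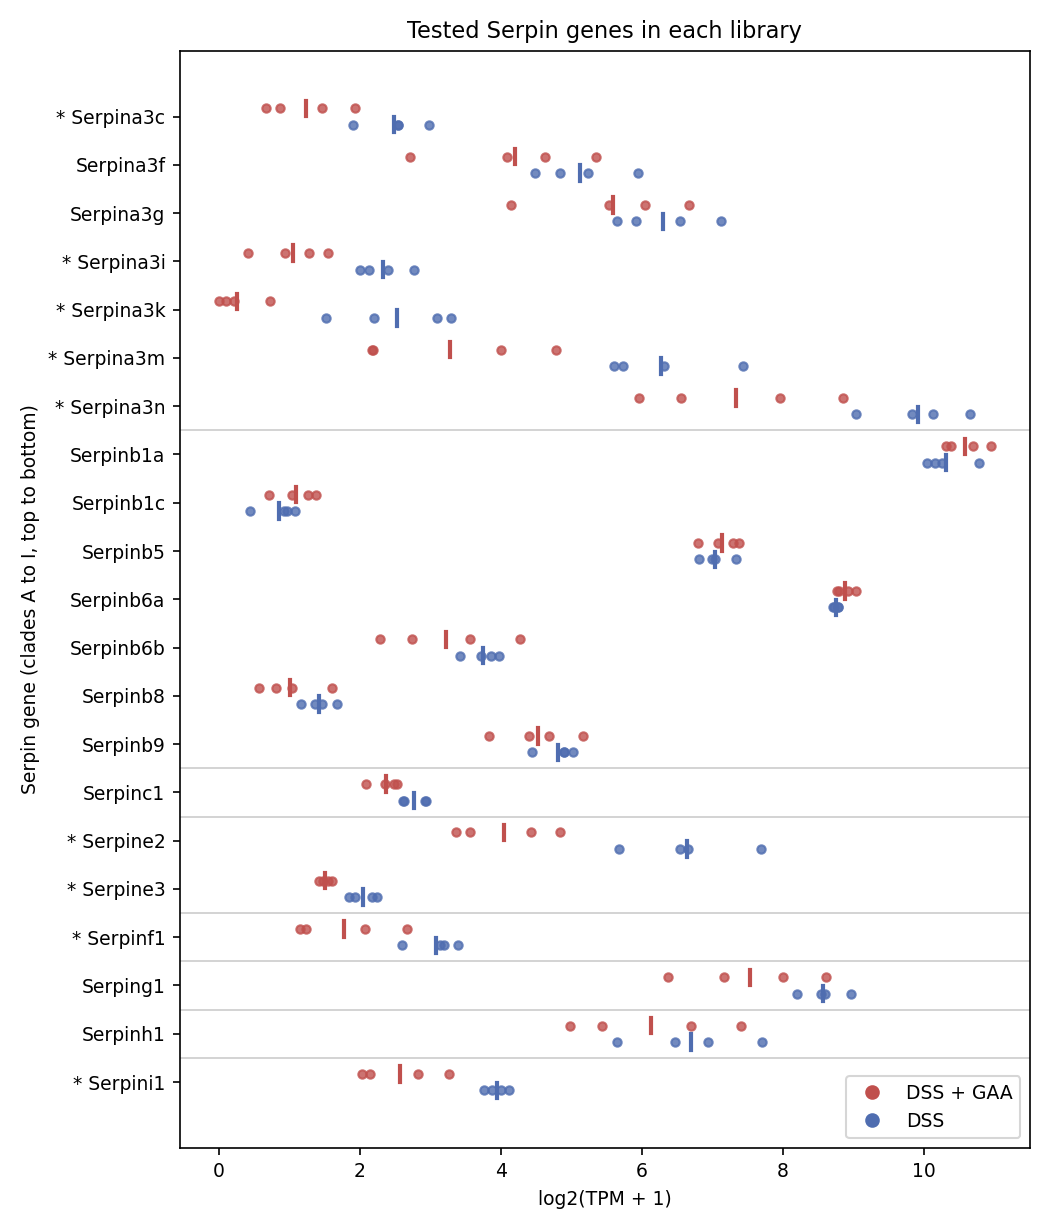
log2(TPM + 1) of the 21 tested Serpin genes in each of the 8 libraries, with clades A to I running down the page. Serpinb1a is high in all libraries, from 1049 to 1976 TPM, while Serpina3n lies at 60.9 to 460 TPM in DSS + GAA and 523 to 1604 TPM in DSS.

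Clade F and clade I each had 1 called gene. Serpinf1, pigment epithelium-derived factor, which inhibits no protease, was 5.34, 3.20, 1.35 and 1.22 TPM in DSS + GAA and 9.46, 8.18, 7.78 and 5.04 TPM in DSS. Its highest DSS + GAA library lay above its lowest DSS library, and limma gave a log2 fold change of -1.30 ± 0.35 (SE) with an adjusted p of 0.0206. The call was lost under 6 settings, with adjusted p-values of 0.0505 to 0.0712, namely the 3 other scalings and leaving out DSS + GAA replicate 4, DSS replicate 1 or DSS replicate 2, and the fold change was -0.72 with an added constant of 5. Serpini1, neuroserpin, an inhibitor of tissue-type plasminogen activator known from neurons, was 8.58, 6.08, 3.43 and 3.09 TPM in DSS + GAA and 16.3, 15.1, 13.7 and 12.6 TPM in DSS. The groups were separated, with a log2 fold change of -1.38 ± 0.27 (SE, adjusted p 0.00790, limma). Enteric neuron and glia markers were lower in DSS + GAA for 11 of 12 genes, and their part in the Serpini1 value was not tested.

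Clades C, G and H each had 1 gene, and none passed. Serping1, the C1 inhibitor that restrains the first proteases of complement, was 388, 255, 142 and 81.7 TPM in DSS + GAA and 498, 386, 370 and 292 TPM in DSS. Only DSS + GAA replicate 1 lay within the DSS range, and the log2 fold change was -1.04 ± 0.42 (SE, adjusted p 0.0857, limma). Without that library the value was -1.39 with an adjusted p of 0.0117, with array quality weights -1.10 with 0.0269, and with the replicate number as a block -1.04 with 0.0283 (limma). Of 10 tested genes that start complement 3 were lower and 1 higher, shares near the 28.2% and 5.96% of all tested genes. C2 (1.57, adjusted p 0.00431), C4b (-0.91, adjusted p 0.0418) and Masp2 (-0.49, adjusted p 0.0443) had the smallest p-values by limma, and the 3 lower calls became 0 under the 3 other scalings, without a filter and without each of DSS + GAA replicates 2 and 4 and DSS replicates 1, 2 and 4.

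Serpinc1, antithrombin, was 4.13, 4.79, 3.23 and 4.598 TPM in DSS + GAA and 6.67, 5.09, 5.16 and 6.56 TPM in DSS. All DSS + GAA libraries lay below all DSS libraries, yet the log2 fold change of -0.41 ± 0.17 (SE) had an adjusted p of 0.0871 by limma, and it turned to 0.02 under quantile normalization. Serpinc1 overlaps Zbtb37 on the opposite strand, with the same limit as for Serpinb6a. Serpinh1, the collagen chaperone HSP47, which inhibits no protease, was 168, 102, 42.2 and 30.6 TPM in DSS + GAA and 122, 87.8, 207 and 49.1 TPM in DSS. Its groups overlapped (log2 fold change -0.56 ± 0.57, SE; adjusted p 0.470, limma). A further list held collagens besides other collagen chaperones and modifying enzymes, and its Col1a1, Col1a2 and Col3a1 are also fibroblast markers here. Of its 22 tested genes 12, Col5a2 among them, were lower and 0 higher, against 28.2% and 5.96% of all tested genes. The median was -1.11. The list was led by Fkbp7 (-1.39, adjusted p 0.00757), P4ha2 (-1.04, adjusted p 0.00978) and P3h4 (-1.19, adjusted p 0.0138), all by limma. That count of 12 was 4 to 6 with the other scalings, where 9.2% to 11.3% of all tested genes were lower. It was 5 when DSS + GAA replicate 4 was left out, 7 for DSS + GAA replicate 5, 3 for DSS replicate 1 and 4 for DSS replicate 4.

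Of 18 tested inhibitors outside the Serpin family, 6 were lower and 4 higher, with a median log2 fold change of -0.57. The share of lower ones was near the 28.2% of all tested genes, and 5.96% of all tested genes were higher. Wfdc18 fell to 76.8 ± 14.5 TPM in DSS + GAA, against 587 ± 216 TPM in DSS (log2 fold change -2.86, adjusted p 0.00320, limma). Spint1 (0.68, adjusted p 0.00779) and Spint2 (0.68, adjusted p 0.00782), Kunitz-type inhibitors of epithelial membrane proteases such as St14, were higher by limma.

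Summed over the 44 genes, Serpin transcripts came to 3814, 3020.01, 2383 and 2185 TPM in DSS + GAA and 4522, 3636, 3598 and 3464 TPM in DSS. One DSS + GAA library, replicate 1, lay within the DSS range. The make-up differed: clade A held 16.6, 11.9, 6.91 and 4.15% of the sum in DSS + GAA libraries and 44.2, 35.2, 29.3 and 20.5% in DSS libraries, with no overlap. Clade B held 67.5 to 89.8% in DSS + GAA and 36.8 to 67.4% in DSS, and a share of a sum rises where another clade's share falls. Serpinb1a was the highest Serpin in 7 libraries, and Serpina3n was the highest in DSS replicate 1. The level of Serpina3n per Serpinb1a was 0.233, 0.150, 0.0698 and 0.0483 in DSS + GAA, all below the DSS values of 1.53, 0.981, 0.743 and 0.297.

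**Figure D5:**
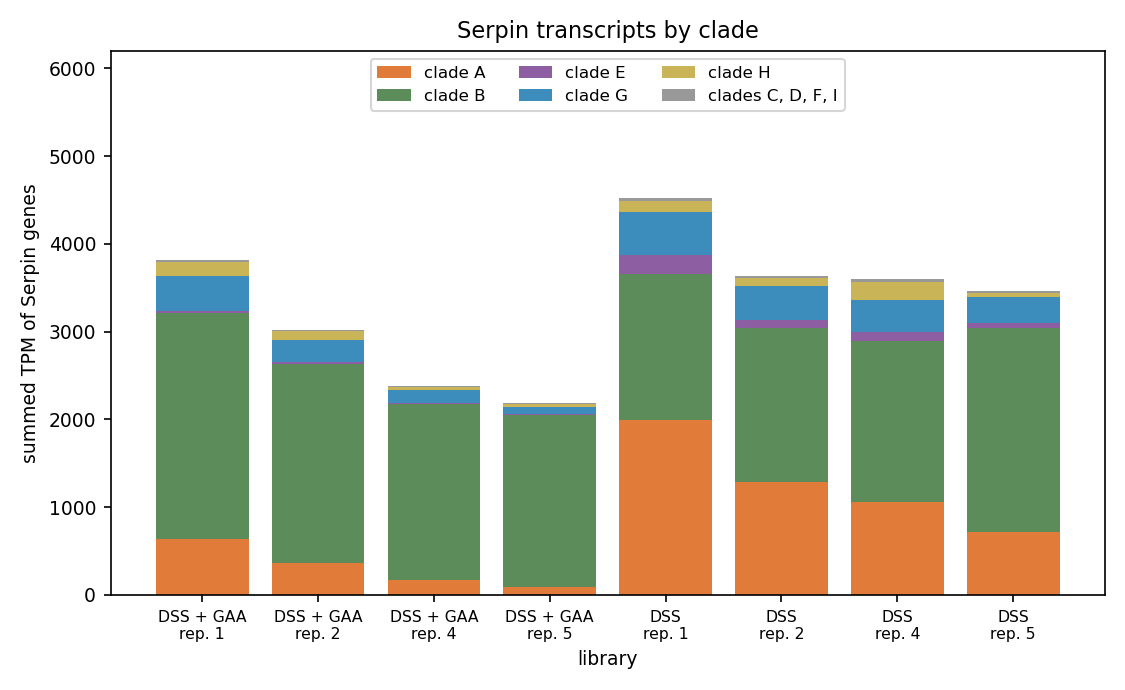
Summed TPM of the 44 Serpin genes in each library, stacked by clade, DSS + GAA libraries left of DSS libraries. Clade A gives 90.8 to 635 TPM in DSS + GAA and 712 to 1997 TPM in DSS, while clade B gives 1961 to 2576 TPM in DSS + GAA and 1664 to 2334 TPM in DSS.

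Libraries within each group were ordered alike for most called genes. Among the 9 lower Serpin genes, DSS + GAA replicate 1 was the highest DSS + GAA library for 8 and replicate 5 the lowest for 7. Among the same 9, DSS replicate 1 was the highest DSS library for 8 and replicate 5 the lowest for 6. By position, chromosome 12 held 16 clade A genes, of which 5 of 7 tested were lower, or 4 of 6 without Serpina3k. Chromosome 13 held 11 clade B genes, of which 0 of 5 tested passed by limma. Over all tested genes 28.2% were called lower and 5.96% higher.

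The other 23 Serpin genes missed the filter, 21 of them with means under 1 TPM in both groups. Of the 23, 5 had separated groups, all lower in DSS + GAA: Serpinb2, Serpinb9e, Serpinb10, Serpind1 and Serpinf2. Of all tested genes 27.6% were separated and lower, but that share covers only genes that passed the filter. The share among all genes that missed it was not computed, so the count of 5 is no result about the low genes. These 5 were named after their values were seen. Serpinb2, which inhibits urokinase, reached 0.205, 0, 0.208 and 0.140 TPM in DSS + GAA and 4.38, 2.73, 1.39 and 0.676 TPM in DSS, and its log2 fold change without a filter was -1.40 (adjusted p 0.0162, limma). Serpind1, heparin cofactor II, stayed at 0 to 0.074 TPM in DSS + GAA and 0.152 to 0.796 TPM in DSS, and Serpinf2, antiplasmin, at 0.140 to 0.283 TPM in DSS + GAA and 0.358 to 0.575 TPM in DSS. Serpinb9e was listed at 0 in every DSS + GAA library and at 0.087 to 1.39 TPM in DSS libraries. Without a filter, limma called these 5 and Serpinb9b lower and 0 of the 23 higher, against 23.5% lower and 4.5% higher among all 18262 genes. The lower share was near that of all genes and so no result about the low Serpin genes.

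In the authors' deposited table, at a false discovery rate under 0.05, 15 Serpin genes were lower and 3 higher, against 16.2% lower and 10.3% higher of all listed genes. The 15 include 8 of the 9 genes called lower here, and Serpine3 is the exception. Because of their low levels, neither the remaining 7 nor the 3 higher ones were tested here; the higher ones are Serpina9, Serpina10 and Serpinb12.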

How the data were processed

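Messenger RNA of mouse colon was measured in 4 DSS + GAA and 4 DSS libraries. The authors deposited TPM values for each gene and library, with the same total in every library, so depth is unknown. They also deposited, per gene, their own log2 fold change. The p-value and false discovery rate beside it were deposited as well, and the test behind these is not stated. The submitters' processing notes name Bowtie2, edgeR, featureCounts, GATK, HISAT2, SAMtools, Subread, Trimmomatic and the build mm10, without versions or roles. Strandedness is not given in these sources.

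Genes reaching 1 TPM in at least 4 of 8 libraries were fitted on the log2(TPM + 1) scale by group, using limma 3.58.1 (R 4.3.3, statmod 1.5.0) with trended, robust moderation of the variance. That scale understates the change of low genes. Tests were two-sided, with Benjamini-Hochberg adjustment across the 14217 tested genes and a threshold of 0.05. The fit was tested on simulated data. All tested Serpin genes are named, those that passed and the 5 highest by mean TPM with every library, and from each partner list the 3 genes with the smallest p. The members and lists were chosen with earlier results of these data known. Positions come from GENCODE vM21 on GRCm38 (mm10), and promoter windows from RefSeq on GRCm38.p6. Read sharing is the share of 75-base words of a gene's longest annotated transcript found in transcripts of other Serpin genes. Alternatives were other added constants and filters, a fit without trend or robust moderation, weights per library, a replicate block, each library left out, and 3 scalings (quantile normalization, median centring and an unweighted trimmed mean). Of the 45 genes matching the rule, 1 is not reported here and was left out of every Serpin count and sum, while the fit and its adjustment ran over all genes. Protein sequences were not used here.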

Additional observations from a re-analysis of the deposited data

How the results depend on the processing

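Of the 9 Serpin genes called lower, 6 kept the call in each of the 18 alternatives in which they were tested (Serpina3k, which passed the filter through DSS libraries alone, among them), and the exceptions were Serpina3c, Serpine3 and Serpinf1. The count of lower Serpin genes was 15 without a filter and 5 with at least 5 TPM, where fewer of the low genes were tested, and 7 to 13 when 1 library was left out (filter 3 libraries, which brought Serpinb2 and Serpina10 into some of these tests). The count of higher Serpin genes was 1 under trimmed mean scaling and under median centring (Serpinb6a), and 0 to 1 when 1 library was left out (Serpina10, without DSS + GAA replicate 1). Signs turned only for Serpinb8 under quantile normalization (0.0150), Serpinb9 under trimmed mean scaling (0.00937) and median centring (0.0124) and Serpinc1 under quantile normalization (0.0184); the cause was not tested. Over all tested genes, 4006 lower and 847 higher calls became 1554 and 2130 under trimmed mean scaling, 1601 and 1677 under quantile normalization and 1308 and 2165 under median centring, so that 82.5% of calls were lower as fitted and 42.2%, 48.8% and 37.7% under the scalings. Among Serpin calls the lower share was 100% as fitted and 87.5%, 100% and 85.7%. The median of all genes moved from -0.25 to 0.03, 0.02 and 0.05. Leaving out 1 library gave 1921 (without DSS replicate 1) to 4572 (without DSS + GAA replicate 1) lower calls over all genes and 388 to 1308 higher ones, from the same 2 libraries. Whether the replicate numbers pair the libraries is not known. Deviations of same-numbered libraries correlated at 0.18, -0.11, 0.15 and -0.03, and 2 of 4 matched their own number best, which does not settle it. With the replicate block 9 Serpin genes were lower; Serpine3 lost its call (adjusted p 0.05555) and Serping1 gained one (0.0283, limma). Counts of partner lists also moved by over 1.5 times: epithelial proteases 3 lower to 1 and other inhibitors 6 lower to 3 without DSS replicate 1, and to 5 and 11 without DSS + GAA replicate 1. Depth is unknown, so no detection limit could be set for the low genes, and 4 libraries a group limit the precision.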
